A study of Mus musculus with 6 samples.

Results

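Bone marrow of young and old wild-type mice was compared over the genes that were measured in both. Of the 6 sections of the series, these were the section of P8 bone marrow, from mice at postnatal day 8, and the section of 89-week bone marrow, from mice 89 weeks old. Both groups were untreated C57BL/6 mice, and 1 section of 5 µm stood for each age. The labels do not give how many animals a section held. The transcripts were counted in place by imaging, with probes for a fixed panel of genes, and each transcript was assigned to a segmented cell. The panel of the P8 section had 477 genes and that of the 89-week section 5050, and 233 gene symbols, with the same gene identifiers, were on both. Cells with 5 or more of these shared genes were kept, which left 49369 of 52594 cells at P8 and 52808 of 143810 at 89 weeks. The 2 sections had 2 cell identifiers in common, and none of these cells had the same counts in both.

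The sections also differed in how they were made. The P8 femur was fixed in formalin and embedded with cartilage, bone and muscle still around the marrow. The 89-week femur was fixed in paraformaldehyde, set in gelatin, frozen and cut into thick slices, from which the marrow was freed of bone before embedding. The 2 sections were imaged in different runs, with different versions of the chemistry and of the instrument's software, and cells were outlined by expanding nuclei at P8 and mostly by a stain of the cell interior at 89 weeks. Age, panel, run, cell outline and tissue preparation therefore cannot be told apart. With 1 section per age no difference could be tested. All values are descriptions of these sections, and the intervals are exact at 95% confidence and cover counting error only.

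In the marrow, red cells mature on the surface of resident macrophages, which provide iron, remove expelled nuclei and carry adhesion molecules such as Vcam1. Granulocytes pass from an early stage, in which the enzymes of the primary granules are made, to mature neutrophils, whose genes for gelatinase and for chemokine receptors come on later. Megakaryocytes shed platelets into the sinusoids, which are lined by endothelium. A bone of the first weeks after birth still grows from cartilage, and its marrow space is young. The shared genes hold markers of each of these cell types, and they are described below by cell type.

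Counts of the shared genes per cell were fewer in the older section. The shared genes had 3058502 counts in the kept cells at P8 and 1041887 at 89 weeks, with a median of 51 and 14 counts per kept cell. They made up 47.6% of all gene counts on the smaller panel and 9.97% on the larger. The 91002 cells of the 89-week section that were left out had a median of 37 counts over all 5050 genes, against 132 in the kept cells. Over all 477 genes of its panel the median of the kept cells at P8 was 114. The filter thus kept the deeper cells of that section. The median area of a kept cell was 48.1 µm² at P8 and 38.9 µm² at 89 weeks. Levels are given as CPM, the counts of a gene divided by the shared total of its section and multiplied by 1000000. Each CPM is thus a share of the same 233 genes, and a gene with high counts lowers the CPM of all others. A gene was compared if it had 100 or more counts in at least 1 section and more than the strongest negative control probe, which had 40 counts at P8 and 18 at 89 weeks. This held for 223 of the 233 genes, and none of them was at 0 in either section. The genes left out, among them Wnt3, Pax8, Upk3b and Sct, had 22 to 90 counts at P8 and 17 to 64 at 89 weeks.

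The tissue in the sections was checked with lists of marker genes. At P8, 56.3% of the kept cells (55.9% to 56.8%) had 3 or more counts of the cartilage or bone and skeletal muscle lists, and on the map of the section these cells followed bands and blocks beside the marrow and also lay within it. At 89 weeks this held for 0.949% of the kept cells (0.868% to 1.04%), and they lay in small patches and at the edges of the pieces. With the muscle list, Acan and Sox9 alone, 18.6% of the kept cells passed this minimum at P8 and 0% at 89 weeks. Cells with 3 or more counts of the early granulocyte list filled the marrow strips at P8 and all pieces at 89 weeks. Cells with 3 or more counts of the erythroid list made up 74.4% of the kept cells at P8 and 51.8% at 89 weeks. For the megakaryocyte list this was 6.99% and 8.04%. The minimum of 3 counts was the same at both ages, while kept cells had a median of 51 shared counts at P8 and 14 at 89 weeks. These shares therefore do not compare amounts of a cell type. As a share of the counts, the erythroid list gave 29.8% at P8 and 41.4% at 89 weeks. Markers of erythroid, granulocyte and megakaryocyte cells were thus present at both ages, and the P8 section held cartilage, bone and muscle besides the marrow. At P8 the cells with erythroid counts, at 74.4%, and those with cartilage, bone or muscle counts, at 56.3%, overlapped. Leaving out the latter, as done below, thus also left out cells with erythroid counts. It kept 1010595 of 3058502 shared counts at P8 and does not give marrow freed of other tissue.

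**Figure D1:**
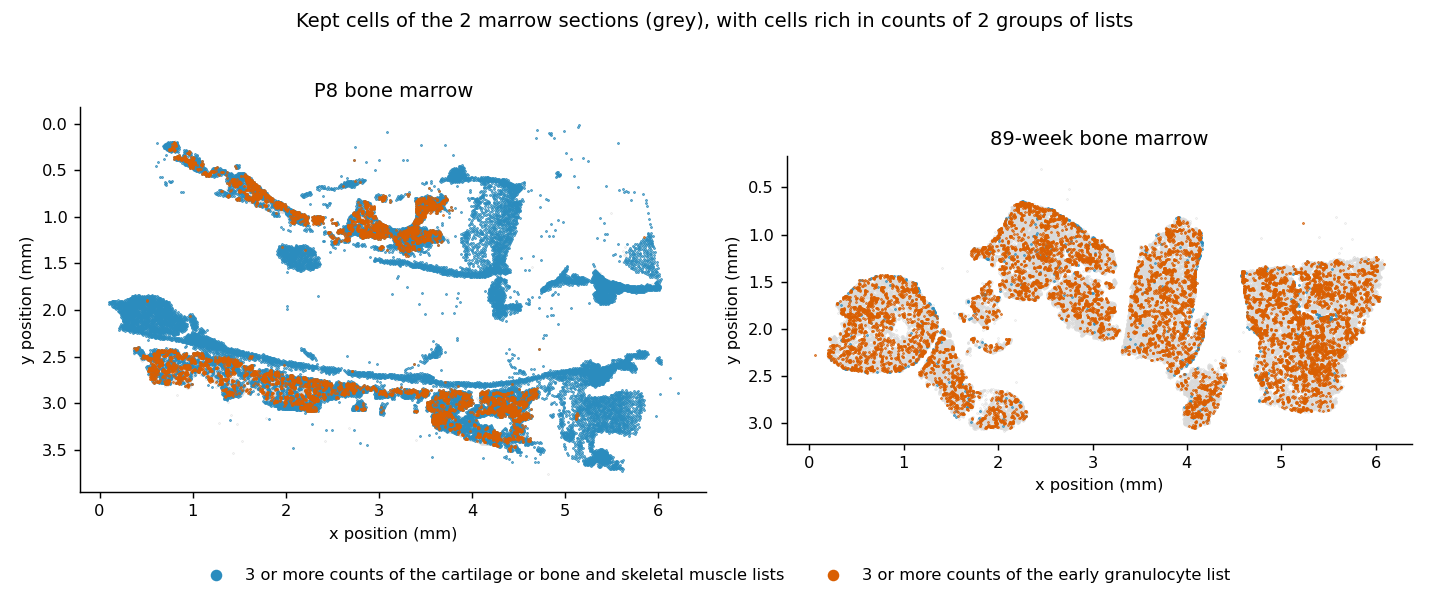
Position of every kept cell (grey) in the P8 and the 89-week section, with axes in mm. Blue cells had 3 or more counts of the cartilage or bone and skeletal muscle lists and orange cells 3 or more counts of the early granulocyte list, drawn last where both held. Blue cells made up 56.3% of the kept cells at P8 and 0.949% at 89 weeks.

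Of the 223 genes, 28 (12.6%) were at least 2-fold higher at 89 weeks and 113 (50.7%) at least 2-fold higher at P8, while 82 lay between. At 4-fold these numbers were 13 and 65. The median log2 ratio of 89 weeks over P8 was -1.08, from -10.34 for Acan to 4.92 for Ccl5. The split between the directions depended on the scale. With the ratios centred on their median, 66 genes were at least 2-fold higher at 89 weeks and 57 at P8. As counts per kept cell, which carry the fewer shared counts per cell of the older section, these were 7 and 186. Every log2 ratio was then lower by 1.65, and 8 of the 28 genes higher at 89 weeks, among them Elane, Ncr1, Cxcl16, F13a1, Ms4a6c, Klra8 and Isg20, stood lower there. With the centring every log2 ratio was raised by 1.08. In the 4 parts of each section, which were cut by position to hold equal numbers of kept cells, the highest value of 1 age lay below the lowest of the other for all 28 genes higher at 89 weeks and for 102 of the 113 genes higher at P8. Over all compared genes the parts were apart in this way for 147 of 223. The genes past 2-fold were picked by the ratio of the whole sections that these parts make up. Their separation is thus not independent of that choice. Parts of 1 section are not replicates.

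The number of probe sets per gene moved with the ratios. A probe set is one of the designed probes that detect a gene, and the panels gave a median of 8 per compared gene at P8 and 2 at 89 weeks. The 15 genes with 5 probe sets on the larger panel had a median log2 ratio of 1.81, and 10 of them were at least 2-fold higher at 89 weeks. The 182 genes with 2 probe sets had a median of -1.27, and 14 were at least 2-fold higher at 89 weeks. When every count was divided by the gene's number of probe sets before scaling, a setting chosen after the data were seen, 23 of the 28 genes higher at 89 weeks and 79 of the 113 higher at P8 kept their 2-fold difference, and no gene past 2-fold turned. Ratios on this scale are given below for some genes only, so a missing value does not mean that a 2-fold difference held on it. In all, 42 genes were at least 2-fold higher at 89 weeks per probe set, in place of 28, and 79 at P8, in place of 113. What the probe sets contribute to the ratios was not tested.

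**Figure D2:**
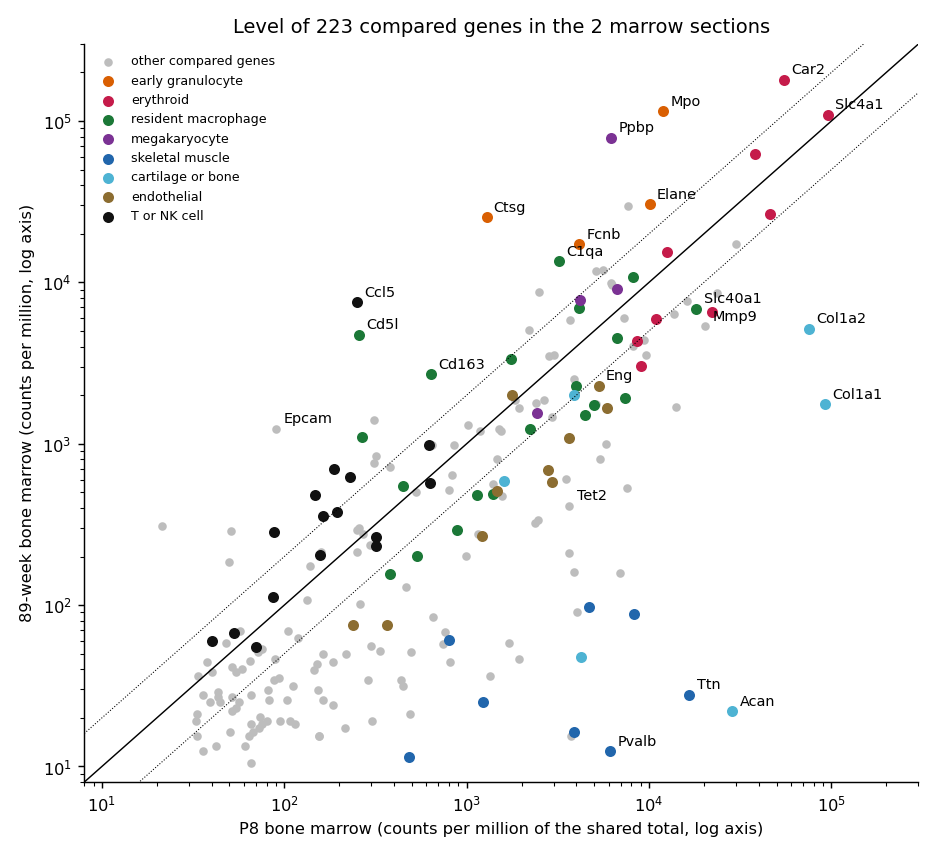
Level of each of the 223 compared genes at P8 (horizontal) and 89 weeks (vertical) in CPM of the shared total, both axes logarithmic. The solid line marks equal levels and the dotted lines 2-fold differences. Mpo, Ppbp, Ctsg, Ccl5 and Cd5l lie far above the lines, and Acan, Ttn, Pvalb and Col1a1 far below.

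The early granulocyte genes were higher at 89 weeks, all 4 of 4 by at least 2-fold against 12.6% of all compared genes, although Elane stood at a log2 ratio of -0.05 as counts per kept cell. The median log2 ratio was 2.66. The share of all genes is not like for like in probe sets. None of the 4 had 8 probe sets on the smaller panel and 2 on the larger, as 167 compared genes had. Of the 15 compared genes with 5 probe sets on the larger panel, 10 were at least 2-fold higher at 89 weeks. Of the 182 with 2, this held for 14. Mpo, Elane and Ctsg encode myeloperoxidase, neutrophil elastase and cathepsin G, the enzymes of the primary granules, and Fcnb encodes ficolin B of immature granulocytes. Mpo had 11938 CPM (36513 counts) at P8 and 114599.8 CPM (119400 counts) at 89 weeks. It was thus 9.6-fold higher in the old marrow (9.49 to 9.71). Ctsg had 1285 CPM at P8 and 25378 CPM at 89 weeks, 19.8-fold higher (19.1 to 20.4). Elane went from 10087 to 30498 CPM, 3.02-fold (2.98 to 3.07), and Fcnb from 4153 to 17235 CPM, 4.15-fold (4.06 to 4.25). The granule genes thus did not move by the same factor, and Ctsg and Elane lay furthest apart. Together these genes gave 2.75% of the shared counts at P8 and 18.8% at 89 weeks.

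Both the share of kept cells with Mpo and the counts in them were higher at 89 weeks. The kept cells were 93.9% of all cells at P8 and 36.7% at 89 weeks. Shares of cells, here and below, are therefore not shares of the whole sections. At least 1 count of Mpo was seen in 21.3% of the kept cells at P8 and in 26% at 89 weeks, with a mean of 3.46 and 8.68 counts in these cells. For Elane the shares were 17.5% and 18%, with 3.56 and 3.35 counts per cell with the gene. For Ctsg the share itself differed most, at 3.82% and 16.4%. Since cells of the older section held fewer shared counts, shares were also computed for cells thinned to 10 shared counts, which left out 467 shallower cells at P8 and 15831 at 89 weeks. On this basis Mpo was seen in 8.54% and 26.8% of the cells, Elane in 7.02% and 16.5%, and Ctsg in 1.03% and 14.3%. All 4 genes had the higher thinned share at 89 weeks, as did 60 of all 223 compared genes. This held for each of the 28 genes at least 2-fold higher at 89 weeks. It is thus no support apart from the ratios.

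These genes shared their cells. Over the 4 parts of a section, Mpo ranged from 9964 to 14262 CPM at P8 and from 109572 to 121704 CPM at 89 weeks. Cells with Mpo held 89.7 times as much Ctsg as cells without it at P8 and 72.8 times at 89 weeks, and 23.6 and 72.5 times as much Elane, in CPM of the counts other than Mpo. For Fcnb these ratios were 5.79 and 8.06. The 4 genes thus marked overlapping cells at both ages. Such factors, here and below, were formed for list members only, so no share over all shared genes stands beside them. After cells with 3 or more cartilage, bone or muscle counts had been left out of both sections, Mpo stood at 15395 CPM at P8 and 114970.5 CPM at 89 weeks, a log2 ratio of 2.90. For Ctsg the log2 ratio was then 3.97, for Elane 1.32 and for Fcnb 1.39, so all stayed past 2-fold. Per probe set the log2 ratios were 2.68 for Mpo, 3.72 for Ctsg, 1.33 for Elane and 1.47 for Fcnb.

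**Figure D3:**
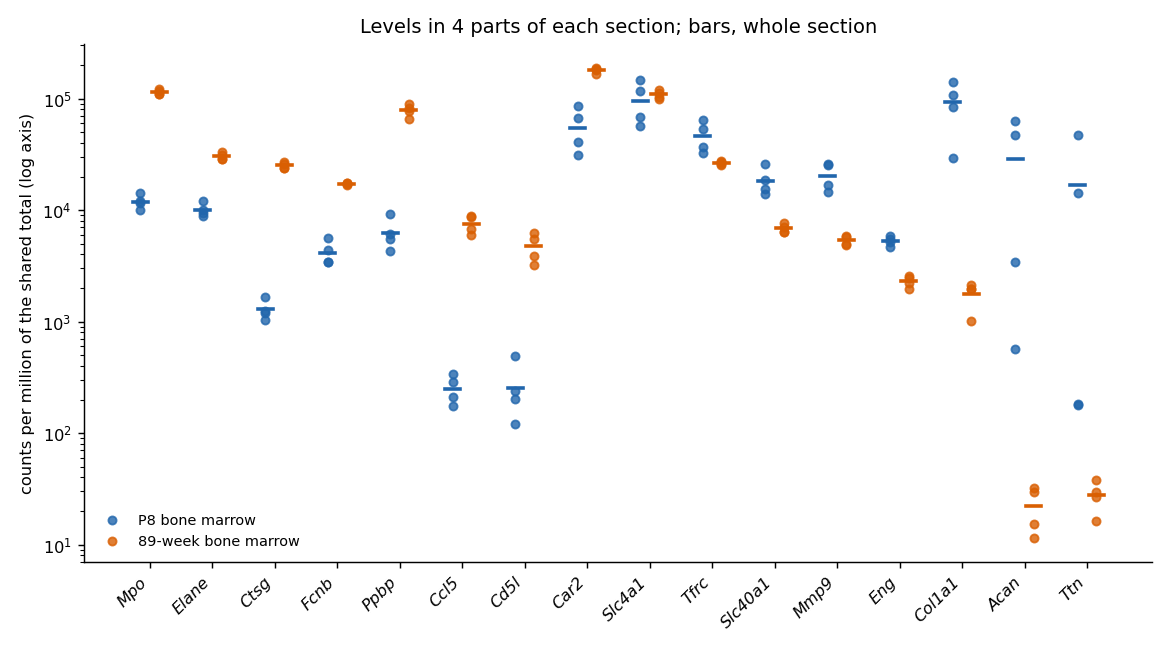
Level of 16 genes in the 4 parts of each section (points) and in the whole section (bars), in CPM of the shared total on a log axis. Mpo, Ctsg and Ccl5 had separate ranges at the 2 ages, the ranges of Slc4a1 overlapped, and Acan and Ttn spread more than 100-fold among the parts at P8.

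None of the 6 genes of mature neutrophils was 2-fold higher at 89 weeks and 3 were 2-fold higher at P8, close to the share of all compared genes. The median log2 ratio was -0.83, which became 0.25 when the ratios were centred. Mmp9, which encodes the gelatinase of late granules, had 20313 CPM at P8 and 5343 CPM at 89 weeks, 3.8-fold higher at P8 (3.7 to 3.91). Ncf4, a subunit of the oxidase that makes superoxide, had 8208 and 4008 CPM, 2.05-fold higher at P8. Both were thus lower in the old marrow. Csf3r, the receptor for the growth factor of granulocytes, had 3881 and 2504 CPM, and Ly6g, the surface protein that marks mouse neutrophils, 1161 and 276 CPM. The 6 genes gave 3.68% of the shared counts at P8 and 1.46% at 89 weeks. Each had a higher level in cells with Mmp9 than in cells without it at both ages, with a median factor of 4.27 at P8 and 3.53 at 89 weeks. Per probe set the median of the list was -0.10, so the lower level depended on that scale, whereas after leaving out cells with cartilage, bone or muscle counts it was -1.48.

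Of 6 monocyte genes, 3 were at least 2-fold higher at 89 weeks and none at P8, against 12.6% and 50.7% of all compared genes. The median log2 ratio was 0.92, and as counts per kept cell it was -0.73. Per probe set only F13a1, at a log2 ratio of 1.94, and Cybb, at 1.37, were past 2-fold, while S100a4 stood at 0.80 and Ms4a6c at 0.62. S100a4, a calcium-binding protein of motile cells, had 2508 CPM at P8 and 8769.7 CPM at 89 weeks, 3.5-fold higher (3.39 to 3.61). F13a1, the subunit of a clotting factor that monocytes make, had 5113 and 11806 CPM, 2.31-fold (2.25 to 2.36). Ms4a6c was 2.3-fold higher. Ccr2, the chemokine receptor by which monocytes leave the marrow, had 1844 and 1853 CPM and did not differ beyond counting error (0.954 to 1.06-fold). Cybb, the large subunit of the oxidase, had 6229 and 9679.6 CPM. Within the list the genes thus ran from a log2 ratio of -0.38 to 1.81. Cells with F13a1 held 1.94 times as much S100a4 as other cells at P8 and 6.65 times at 89 weeks, while for Ccr2 the factors were 4.64 and 6.21 and for Ms4a6c 4.88 and 6.33. For Cybb they were 1.18 and 1.27 and for Cd300lf, an inhibitory receptor of myeloid cells, 0.745 and 0.925, so these genes were not concentrated in cells with F13a1. The mast cell gene Cpa3, the only shared gene of the eosinophil or mast cell list, had 1499 and 1229 CPM.

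The erythroid genes gave 29.8% of the shared counts at P8 and 41.4% at 89 weeks, 1.39-fold more, although the median log2 ratio of the 9 genes was -0.80, or 0.29 with the ratios centred. The sum and the median thus had opposite signs. Car2, Klf1 and Slc4a1 were among those that stood higher at 89 weeks, and 5 stood lower. Car2, carbonic anhydrase of red cells, had 55094 CPM at P8 and 180413 CPM at 89 weeks, 3.27-fold higher (3.25 to 3.3). It was the only one of the 9 past 2-fold in that direction, near the 12.6% of all compared genes. As counts per kept cell the log2 ratio of Car2 was 0.06. At P8, 2 of the 9 were at least 2-fold higher, against 50.7% of all compared genes. Slc4a1, the anion exchanger of the red cell membrane, had 95174 and 109413 CPM, 1.15-fold (1.14 to 1.16). Over the parts of the section it ranged from 57021 to 146854 CPM at P8, a range that held the range of 99348 to 120369.9 CPM at 89 weeks. The parts ranged from 31309.9 to 85599 CPM at P8 and from 164932 to 190144 CPM at 89 weeks for Car2, with no overlap.

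Other erythroid genes stood lower in the old marrow. Gata1, the transcription factor that starts the erythroid program, had 9041 CPM at P8 and 3037 CPM at 89 weeks, 2.98-fold higher at P8 (2.87 to 3.09). Isca1, which assembles iron-sulfur clusters in mitochondria, had 22178 and 6574 CPM, 3.37-fold higher at P8 (3.29 to 3.46). Tfrc, the transferrin receptor, had 46224 and 26632 CPM, 1.74-fold higher at P8. Epor, the erythropoietin receptor, had 10855 and 5933 CPM, 1.83-fold higher at P8 (1.78 to 1.88), and the urea transporter gene Slc14a1 was 1.97-fold higher at P8. Klf1, the erythroid factor downstream of Gata1, had 12598 and 15323 CPM. Klf1 and Gata1 thus had log2 ratios of 0.28 and -1.57. All 8 other genes of the list were at least 2-fold higher in cells with Car2 than in cells without it, at both ages. For Gata1 that factor was 15.9 at P8 and 4.39 at 89 weeks, for Epor 15.8 and 6.86, and for Klf1 21.2 and 29. The count of 8 has no share over all shared genes beside it.

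In the cells left after removal of those with cartilage, bone or muscle counts, the erythroid share of the shared total was 51.9% at P8 and 41.7% at 89 weeks, so the direction of the sum turned. The median log2 ratio of the list then moved to -1.46. The log2 ratio of Car2 was then 0.94, that of Slc4a1 -0.62 and that of Gata1 -2.45. Of the erythroid genes only Car2 was then higher at 89 weeks, and less than 2-fold. Car2 was the single erythroid gene with more probe sets on the larger panel, 5 against 4. Per probe set its log2 ratio was 0.12, and that of Slc4a1, with 2 against 8, was 0.94. That of Gata1 was -0.84, under 2-fold, while Isca1 stayed past 2-fold at -1.02. The order among erythroid genes therefore differed between the scales.

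Of 20 resident macrophage genes, 4 were at least 2-fold higher at 89 weeks and 9 at P8, shares not far from the 12.6% and 50.7% of all compared genes. They had a median log2 ratio of -0.83, or 0.25 with the ratios centred, while their sum gave 7.11% of the shared counts at P8 and 6.53% at 89 weeks. Cd5l, a protein that tissue macrophages secrete, had 256 CPM (784 counts) at P8 and 4733 CPM (4931 counts) at 89 weeks. It was 18.5-fold higher in the old marrow (17.1 to 19.9), and its share of cells was 1.23% at P8 and 6.82% at 89 weeks. Cd163, the scavenger receptor for hemoglobin bound to haptoglobin, had 637 and 2694 CPM, 4.23-fold (3.99 to 4.48). Nr1h3, the liver X receptor alpha that controls cholesterol export, had 268 and 1107 CPM, 4.13-fold (3.77 to 4.52). Each of these had 2 probe sets on the larger panel and 8 on the smaller. Between the fetal livers of the series the log2 ratio was 1.36 for Cd5l and 1.91 for Nr1h3. After removal of cells with cartilage, bone or muscle counts, the log2 ratios were 3.59 for Cd5l, 2.56 for Cd163 and 1.98 for Nr1h3.

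Other macrophage genes were higher at P8 or within 2-fold. Slc40a1, the iron exporter ferroportin, had 18167 CPM at P8 and 6869 CPM at 89 weeks, 2.64-fold higher at P8 (2.58 to 2.71). The transcription factor gene Maf had 7388 and 1927 CPM, 3.83-fold higher at P8, and the mannose receptor gene Mrc1 4451 and 1499 CPM, 2.97-fold higher at P8. The others past 2-fold were Marco, Igf1, Il18, Folr2, Lyve1 and Ms4a7, from 2.35-fold to 3.02-fold higher at P8. Per probe set only Maf, at a log2 ratio of -1.20, and Igf1, at -1.37, stayed past 2-fold. Slc40a1 then stood at -0.67, Mrc1 at -0.83 and the others at -0.86 to -0.50. Without the cells with cartilage, bone or muscle counts Folr2 stood at -0.38 and Lyve1 at -0.01, and the others stayed past 2-fold. Vcam1, the adhesion molecule that holds erythroblasts, had 6675 and 4497 CPM, 1.48-fold higher at P8 (1.44 to 1.53). Adgre1, the F4/80 antigen, had 2236 and 1242 CPM, 1.8-fold higher at P8 (1.7 to 1.91), and Siglec1, sialoadhesin, 447 and 547 CPM, 1.22-fold higher at 89 weeks (1.11 to 1.35). The direction of Siglec1 turned to a log2 ratio of -0.36 without the cells with cartilage, bone or muscle counts and -1.36 as counts per kept cell. That of Vcam1 turned to 0.17 per probe set and to 0.33 minus the ratio of the fetal livers of the series. None of these 3 genes differed 2-fold. Slc40a1 is also made by erythroid cells. Of the 19 other genes of the list, 11 were at least 2-fold higher in cells with Slc40a1 than in cells without it at P8 and 15 at 89 weeks, while Lyve1 was lower in them, by factors of 0.611 and 0.534. This factor was 2.33 for Vcam1, 2.22 for Adgre1, 3.34 for Siglec1, 1.43 for Cd163, 1.08 for Igf1 and 0.994 for Folr2 at P8. At 89 weeks these factors were 2.2, 2.16, 3.36, 3.18, 2.15 and 2.41. The counts of 11 and 15 genes have no share over all shared genes beside them.

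The genes of the complement subunits C1qa, C1qb and C1qc, which the study used to mark island macrophages, were higher at 89 weeks by unequal factors, although as counts per kept cell only C1qa was, with a log2 ratio of 0.42 against -1.24 for C1qb and -0.91 for C1qc. C1qa had 3216 CPM at P8 and 13499.5 CPM at 89 weeks, 4.2-fold higher (4.09 to 4.31). C1qb had 8165 and 10844 CPM, 1.33-fold (1.3 to 1.36), and C1qc 4119 and 6896 CPM, 1.67-fold (1.63 to 1.72). Only C1qa was past 2-fold, although the subunits form 1 protein. The number of probe sets was 7, 6 and 8 on the smaller panel and 5 each on the larger. Per probe set the log2 ratios were 1.29, -0.59 and 0.16, so that C1qb then stood lower at 89 weeks. After removal of cells with cartilage, bone or muscle counts they were 1.46, -0.12 and 0.35. At least 1 count of C1qb was seen in 26% of cells at P8 and 14.6% at 89 weeks, and in 7.44% and 9.71% after thinning. The order of the shares thus turned with thinning, which changes the depth and also leaves out the shallower cells.

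Among the 4 megakaryocyte genes, Ppbp stood apart. The median log2 ratio of the list was 0.67, and -0.98 as counts per kept cell. Ppbp and Pf4 encode chemokines stored in the alpha granules of platelets, Vwf the von Willebrand factor and Mmrn1 multimerin. Ppbp had 6195 CPM at P8 and 78978 CPM at 89 weeks, 12.7-fold higher (12.5 to 13). Pf4 had 6689.9 and 9140.1 CPM, 1.37-fold (1.33 to 1.4), Vwf 4194 and 7795 CPM, 1.86-fold (1.81 to 1.91), and Mmrn1 2435 and 1556 CPM, 1.56-fold higher at P8. Ppbp was thus the only one of the 4 past 2-fold, where 12.6% of all compared genes were so at 89 weeks and 50.7% at P8. Its log2 ratio exceeded that of Pf4 by more than 3. Minus the ratio of the fetal livers of the series, Ppbp stood at 2.32, Pf4 at 1.32 and Vwf at 1.34, all past 2-fold. Ppbp was also the only one with 5 probe sets on the larger panel, the others having 2, and per probe set the log2 ratios were 3.09 for Ppbp, 0.51 for Pf4 and 1.63 for Vwf.

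The other megakaryocyte genes were concentrated in cells with Ppbp at both ages. Ppbp was seen in 9.51% of cells at P8 and 13.4% at 89 weeks, with 4.03 and 11.6 counts per cell with the gene. Cells with Ppbp held 14.8 times as much Pf4 as other cells at P8 and 47.6 times at 89 weeks. For Vwf these factors were 14.4 and 55.4, and for Mmrn1 16.4 and 40.5. The level of Pf4 in cells without Ppbp was 2661 CPM at P8 and 1504 CPM at 89 weeks. Of the Pf4 counts, 7191 of 20461 lay in cells without Ppbp at P8 and 1270 of 9523 at 89 weeks. At least 1 count of the list was seen in 27.4% of the cells at P8 and 16.6% at 89 weeks, and 3 or more in 6.99% and 8.04%, so the order of the shares turned with the minimum.

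Of 16 genes of T and NK cells, 6 were at least 2-fold higher at 89 weeks and none at P8, where all compared genes gave 12.6% and 50.7%. The median log2 ratio was 0.62, and -1.03 as counts per kept cell. The list gave 0.355% of the shared counts at P8 and 1.29% at 89 weeks. Ccl5, the chemokine of cytotoxic lymphocytes, had 249.8 CPM (764 counts) at P8 and 7558 CPM (7875 counts) at 89 weeks. Its 30.3-fold difference (28.1 to 32.6) was the largest of all compared genes in this direction, and it had 3 probe sets on the smaller panel and 5 on the larger. Per probe set the log2 ratio of Ccl5 was 2.92. It was then below those of Cd5l (4.94), Ctsg (3.72), Epcam (3.52), Ccl8 (3.18) and Ppbp (3.09). The T cell receptor subunits Cd3d and Cd3e had 187 and 147 CPM at P8 and 695 and 478 CPM at 89 weeks, 3.71-fold and 3.26-fold higher, with 2 probe sets on the larger panel and 8 on the smaller. Cd8a, the co-receptor of cytotoxic T cells, was 3.23-fold higher (2.73 to 3.82), and Ncr1, a receptor of NK cells, 2.71-fold (2.43 to 3.02). The other gene past 2-fold was Klra8, also an NK cell receptor, at 2.18-fold. A further NK cell receptor, Klrb1c, went the other way, with 317 CPM at P8 and 233 CPM at 89 weeks, a log2 ratio of -0.44. Cd4, the co-receptor of helper cells that macrophages and monocytes can also carry, had 619.9 and 985 CPM, and the transcription factor gene Ikzf2 633 and 567 CPM.

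Several of these genes were concentrated in cells with Ccl5. Such cells numbered 462 at P8 and 3111 at 89 weeks, or 0.936% and 5.89% of kept cells. Compared with cells without Ccl5, they held 49.3 times as much Ncr1 at P8 and 73.3 times at 89 weeks, and 17.9 and 28.5 times as much Cd3d. For Cd8a the factors were 10.6 and 47.5. Both NK and T cell genes thus lay in these cells. Of the 12 genes of the list with enough counts for this comparison, 8 were at least 2-fold higher in cells with Ccl5 at P8 and 11 at 89 weeks. No share over all shared genes was formed for it. For Cd4 the factors were 1.32 and 1.8, and for Lag3, an inhibitory receptor of T cells, 1.09 and 3.81. The B cell genes among the shared genes were only Cxcr5, a receptor of follicle homing, and Sdc1, syndecan of plasma cells. Cxcr5 had 257 CPM at P8 and 300.4 CPM at 89 weeks, and Sdc1 1947 and 1660.4 CPM, both less than 2-fold apart. The log2 ratio of Sdc1 was -0.23 and turned to 1.32 without the cells with cartilage, bone or muscle counts. At P8 the 2 genes had 6741 counts in the kept cells, and without those cells Sdc1 kept 662 and Cxcr5 324. Most Sdc1 counts at P8 thus lay in the cells left out, so its level cannot be read as one of plasma cells.

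Chemokine genes other than those of platelets and lymphocytes had few counts. Of 11, 3 were at least 2-fold higher at 89 weeks and 2 at P8 (12.6% and 50.7% of all compared genes), with a median log2 ratio of 0.04, or -1.61 as counts per kept cell. Per probe set the median was 0.95. Ccl8, a chemokine of the monocyte-attracting group, had 21.3 CPM (65 counts) at P8 and 309 CPM (322 counts) at 89 weeks, 14.5-fold higher (11.1 to 19.3). Cxcl13, which attracts B cells, was 3.72-fold higher (3 to 4.63) and Cxcl16, a membrane-bound chemokine, 2.61-fold (2.38 to 2.87). Cxcl10, induced by interferon, had 269.7 and 277 CPM, and Ccl2 251 and 291 CPM. These last differed by less than 2-fold. Without the cells with cartilage, bone or muscle counts, however, Ccl2 stood at a log2 ratio of 1.12 and the median of the list at 1.56. That median left out Ccl11, Cxcl2, Ccl12 and Cxcl1, which then had too few counts, so it is not over the same genes. The genes higher at P8 were Ccl11, which attracts eosinophils, with 327 counts at P8 and 20 at 89 weeks, and Cxcl2, which attracts neutrophils, with 247 and 20 counts. Among the 8 genes of interferon response or innate sensing, Isg20, an exonuclease induced by interferon, was 2.13-fold higher at 89 weeks (5606 and 11931 CPM). Its log2 ratio of 1.09 was 0.41 per probe set and 0.27 without the cells with cartilage, bone or muscle counts, both under 2-fold. At P8 and 89 weeks, cells with Isg20 held a median of 0.849 and 0.415 times the level of other cells, over 6 other list genes. None of the 6 was 2-fold higher in cells with Isg20. Tlr4, the receptor for bacterial lipopolysaccharide, was 7.27-fold higher at P8 (2449 and 337 CPM), and Gsdmd, the pore protein gasdermin D, had 2832 and 3491 CPM. The other 5 lay within 2-fold.

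The largest differences in the other direction were those of skeletal tissue. Of 6 cartilage or bone genes, 5 were at least 2-fold higher at P8, as were all 8 of 8 skeletal muscle genes, against 50.7% of all compared genes. Acan, the core protein of cartilage aggrecan, had 87559 counts (28628 CPM) at P8 and 23 counts (22.1 CPM) at 89 weeks, 1297-fold higher at P8 (864 to 2046). Ttn, the muscle protein titin, had 50872 and 29 counts, 598-fold higher at P8 (416 to 892). Pvalb, parvalbumin of fast muscle fibers, had 18711 counts at P8 and 13 at 89 weeks, Thbs4, a thrombospondin of tendon and muscle, 11444 and 16, and Sypl2, a protein of muscle membranes, 11867 and 17. At 89 weeks these had fewer counts than the strongest negative control probe, and no fold is given for them. Des, Sox9, Col1a1, Tnnc1 and Trdn were between 47.7-fold and 94.1-fold higher at P8. Des encodes the muscle filament desmin, and Sox9 the factor that specifies cartilage. At 89 weeks the cartilage or bone list gave 0.957% of the shared counts, against 20.6% at P8, and the muscle list 0.034% against 4.21%.

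These genes were uneven at P8. Over the 4 parts of a section, Acan ranged from 567 to 62652 CPM and Ttn from 179 to 47182 CPM, and Col1a1 from 29055 to 140831 CPM. Col1a1 and Col1a2, the chains of type I collagen, had 92573 and 75279 CPM at P8 and 1754 and 5158 CPM at 89 weeks, 52.8-fold and 14.6-fold higher at P8. They were seen in 67% and 67% of the cells at P8 and in 1.43% and 5.69% at 89 weeks. Their factors thus differed by more than 3 times, and Col1a1 had 1 probe set on the larger panel and Col1a2 2. Per probe set the log2 ratios were -3.99 and -3.13. Of the genes of bone itself, Runx2, the factor of the osteoblast line, had 3888 and 1997 CPM, and Atp6v0d2, a proton pump subunit of osteoclasts, 1607 and 587 CPM. Runx2 alone of the list stayed under 2-fold. When cells with 3 or more cartilage, bone or muscle counts were left out, a choice that uses the counts of these genes themselves, the direction of both turned, with log2 ratios of 1.05 for Runx2 and 2.06 for Atp6v0d2. With the ratios centred, Runx2 stood at 0.12.

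Stromal genes were lower at 89 weeks. All 7 of 7 were at least 2-fold higher at P8 (50.7% of all compared genes), with a median log2 ratio of -2.96. Lum, the matrix protein lumican, had 6915 CPM at P8 and 158 CPM at 89 weeks, 43.7-fold higher at P8 (37.5 to 51.2). The growth factor receptor genes Pdgfra and Pdgfrb had 7603 and 5148 CPM at P8 and 531 and 1765 CPM at 89 weeks, 14.3-fold and 2.92-fold higher at P8. Pdgfrb thus had the smallest difference of the list. After removal of cells with cartilage, bone or muscle counts its log2 ratio was 0.11, so its direction turned, while Pdgfra stayed at -1.34. The log2 ratio of Lum then moved from -5.45 to -3.21 and the median of the list to -1.34. That median left out Mfap5 and Cnn1, which then had too few counts. Cells with Pdgfra held 3.96 times as much Pdgfrb as other cells at P8 and 11 times at 89 weeks.

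Of 10 endothelial genes, 9 were at least 2-fold higher at P8, against 50.7% of all compared genes, and none at 89 weeks, with a median log2 ratio of -1.77. With the ratios centred the median was -0.69, and only Tie1, Angpt2 and Podxl stayed past 2-fold. Per probe set Eng, Clec14a and Sox17 fell under 2-fold, at log2 ratios of -0.47, -0.77 and -0.93. The others of the 9 stayed past it. Without the cells with cartilage, bone or muscle counts the same genes fell under it, at -0.88, -0.65 and -0.93. Kdr, the main receptor for the vascular growth factor VEGF, had 3638 CPM at P8 and 1091 CPM at 89 weeks, 3.33-fold higher at P8 (3.14 to 3.55). Cd93 had 5848 and 1667 CPM, 3.51-fold (3.34 to 3.69), and Eng, endoglin, 5285 and 2292 CPM, 2.31-fold (2.21 to 2.41). These were lower at 89 weeks in every part of the section. The exception was Plvap, the protein of the diaphragms of fenestrated vessels such as marrow sinusoids, with 1763 and 2016 CPM (1.09 to 1.2-fold at 89 weeks). It was lower at 89 weeks as counts per kept cell, with a log2 ratio of -1.46, and its ratio minus that of the fetal livers of the series was -1.65. Cells with Eng held 5.03 times as much Plvap as other cells at P8 and 8.26 times at 89 weeks, and 5.71 and 7.76 times as much Kdr, so both genes stayed with Eng. The sum of the list was 2.55% of the shared counts at P8 and 0.926% at 89 weeks, and 1.9% and 0.918% without the cells with cartilage, bone or muscle counts. In whole sections, fewer cells of a type and less RNA per cell cannot be told apart.

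Of 4 genes linked to stem and progenitor cells, 2 were at least 2-fold higher at P8, near the 50.7% of all compared genes, so the count shows nothing particular to them. Cd34, carried by progenitors and by vessels and stroma, had 3506 CPM at P8 and 604 CPM at 89 weeks, 5.81-fold higher at P8 (5.36 to 6.3). Without the cells with cartilage, bone or muscle counts its log2 ratio was -0.28 in place of -2.54. Kit, the receptor for stem cell factor, had 2928 and 1465 CPM and fell just short of 2-fold, with a log2 ratio of -0.999. Minus the ratio of the fetal livers of the series it was 0.77, so its direction turned. Cd48, a surface protein of committed progenitors and leukocytes, had 2995 and 3543 CPM. Tet2, which oxidizes methylated DNA and is often mutated in blood cells of old humans, had 3657 and 414 CPM, 8.84-fold higher at P8 (8.03 to 9.76), and its log2 ratio was -2.59 without those cells and -2.41 per probe set. In the cell cycle list, Diaph3, a formin of the cytoskeleton, was 2.75-fold higher at P8 and Cenpf, a centromere protein, had 7301 and 6028 CPM. Minus the ratio of the fetal livers, Diaph3 stood at -0.15 and Cenpf at 0.89.

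**Figure D4:**
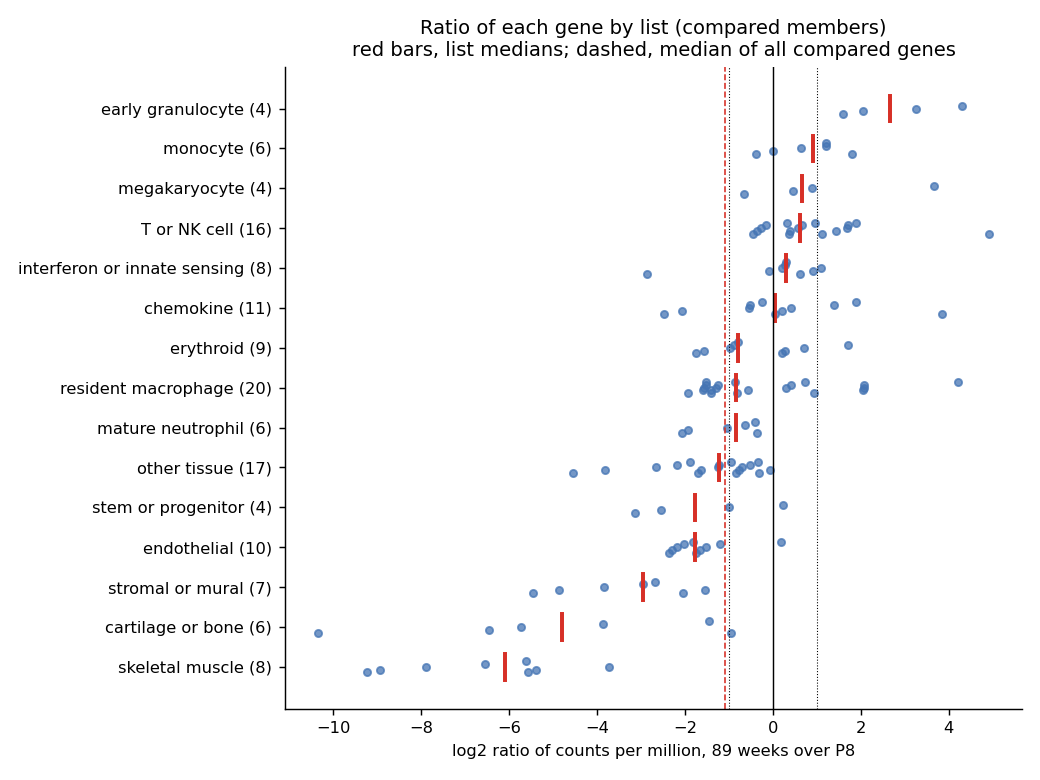
Log2 ratio of CPM, 89 weeks over P8, for the compared members of each list with 3 or more of them (points, number in brackets) and the list median (red bar). Solid and dotted lines mark 0 and 2-fold, and the dashed line marks the median of all compared genes at -1.08. The early granulocyte list lies wholly above 2-fold and the skeletal muscle and stromal lists wholly below, on this scale.

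Of the 81 compared genes in no list, 5 were at least 2-fold higher at 89 weeks and 54 at P8, against 12.6% and 50.7% of all compared genes. Epcam, the epithelial cell adhesion molecule, had 276 counts at P8 and 1292 at 89 weeks, or 90.2 and 1240.1 CPM, 13.7-fold higher (12.1 to 15.7). It was seen in 0.537% and 1.9% of the cells, and its level over the parts at 89 weeks ranged from 828 to 1746 CPM. Lipg, endothelial lipase, had 309.6 and 1409.9 CPM, 4.55-fold higher (4.19 to 4.95), and a log2 ratio of 4.05 without the cells with cartilage, bone or muscle counts. Ctss, the lysosomal protease cathepsin S, which is named here for its level after its value was seen, had 7653 and 29754 CPM, 3.89-fold higher (3.82 to 3.95). Every part of the old section stood above every part of the P8 section for these genes. The same held for every gene at least 2-fold higher at 89 weeks. Cldn7, a protein of tight junctions, was 5.59-fold higher at 89 weeks.

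Further unlisted genes with many counts were chosen after their values were seen. Cd44, the hyaluronan receptor of most blood cells, had 14089.9 CPM at P8 and 1682 CPM at 89 weeks, 8.38-fold higher at P8 (7.99 to 8.79), and a log2 ratio of -3.11 without the cells with cartilage, bone or muscle counts. Itgam, the integrin chain of myeloid cells, had 9374 and 4389 CPM, 2.14-fold higher at P8 (2.07 to 2.2), and Itgb1, the common integrin chain, 30104 and 17269.6 CPM, 1.74-fold. Anxa2, a membrane-binding annexin, was 2.74-fold higher at P8, but its log2 ratio moved from -1.45 to -0.11 when those cells were left out. For Igfbp3, which binds insulin-like growth factors, it moved from -2.55 to 0.10. Vegfa, the growth factor of vessels, was 6.68-fold higher at P8 (6.23 to 7.17), with -2.27 as the log2 ratio between the livers and -0.47 left after subtraction.

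Of 17 compared genes of tissues that are not part of marrow, none was 2-fold higher at 89 weeks and 9 were 2-fold higher at P8, with a median log2 ratio of -1.23. This share was close to that of all compared genes, and no difference particular to these genes can be read from it. Gfap, the filament protein of astrocytes, had the most counts of them, with 2651 CPM at P8 and 1859 CPM at 89 weeks and was seen in 13.3% and 3.29% of the cells. Omp, of olfactory neurons, had 297 and 236 CPM, and Aqp4, a water channel of brain that muscle also makes, 492 and 21.1 CPM. Of the fat list only Retn, resistin, was shared, with 151 and 43.2 CPM.

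The fetal livers of the series were set beside the marrow, since the E14.5 liver shared the panel and the run of the P8 section and the E13.5 liver those of the 89-week section. They had 117237 and 3903 kept cells and 8920125 and 96519 shared counts, and 69 compared genes had 100 or more counts in both. Of 9 such genes that were at least 2-fold higher at 89 weeks, 5 were also at least 2-fold higher at E13.5 than at E14.5, and 6 exceeded the liver ratio by 2-fold or more. Of all 69 genes, 13 were at least 2-fold higher at E13.5 and 16 at E14.5. Of 34 genes at least 2-fold higher at P8, 9 were 2-fold higher at E14.5, and 22 exceeded the liver ratio by 2-fold or more in that direction. Over all 69 genes, 12 exceeded the liver ratio by 2-fold or more and 25 lay below it by as much. The marrow ratio is part of this difference, so genes picked by that ratio give no independent check. Across these 69 genes, which share panel, run and base composition between the comparisons and are not independent, Pearson's r was 0.13 and Spearman's rho 0.10. The livers also differed in age and in depth.

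Several genes differed as much between the livers as between the marrows. Car2 had a log2 ratio of 1.71 in marrow and 1.71 in liver, Nr1h3 2.05 and 1.91, and Slc40a1 -1.40 and -1.41. Their marrow ratios minus the liver ratios were 0.01, 0.13 and 0.01. The unequal C1q genes were unequal in liver too, with 1.61 for C1qa, 0.35 for C1qb and 1.15 for C1qc, which left 0.45, 0.06 and -0.41. For Slc4a1 0.06 remained, for Tfrc 0.02 and for Epor 0.41. Of the 9 erythroid genes, 5 thus lay within 0.5 of the liver ratio, as did 17 of all 69 genes. The exceptions were Isca1 with 0.57, Slc14a1 with 0.58, Klf1 with 0.81 and Gata1 with 1.52, all higher at 89 weeks relative to liver. For Gata1 the liver ratio itself was -3.10.

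Other genes exceeded the liver ratio. Ctsg had 0.71 in liver against 4.30 in marrow, Mpo 0.75 against 3.26, Ppbp 1.35 against 3.67 and Cd5l 1.36 against 4.21, which left 3.59, 2.51, 2.32 and 2.85. All of them thus stayed more than 4-fold higher after subtraction. They were among the 10 highest marrow ratios, which enter the difference, so this is not independent of how they were picked. In the other direction Col1a1, Lum, Col1a2 and Pdgfra left -6.12, -5.88, -5.15 and -4.11, and Cd34, Kdr and Eng -2.71, -2.13 and -1.46. Elane, Fcnb, Cd163 and Ccl5 had fewer than 100 counts in the E13.5 liver, and no such difference was formed for them.

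**Figure D5:**
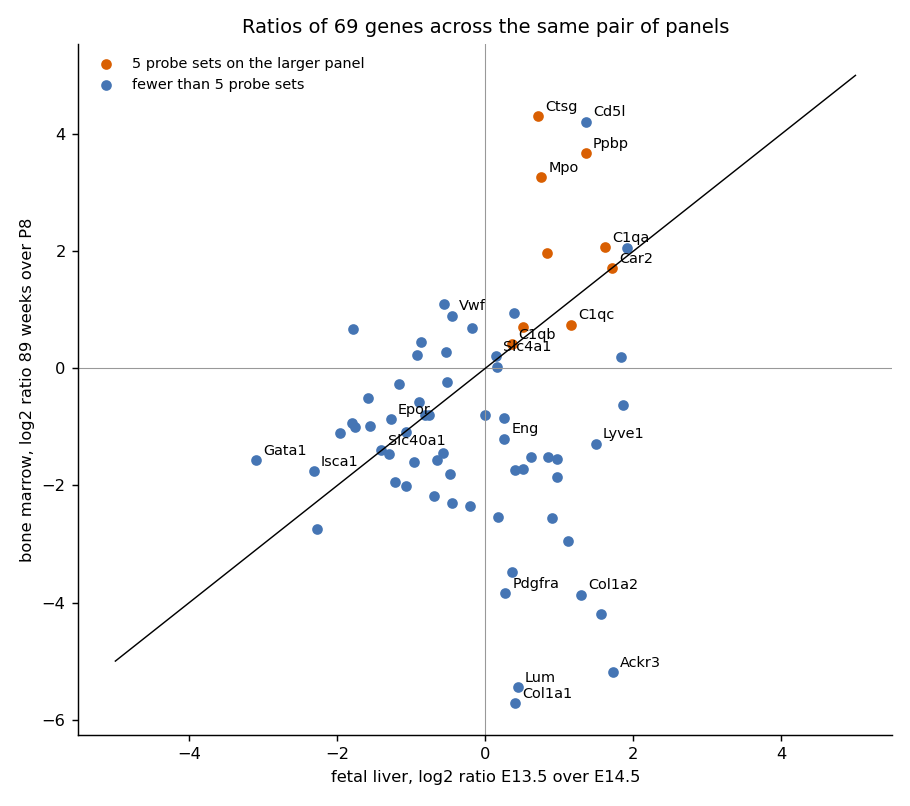
Log2 ratio of CPM in fetal liver, E13.5 over E14.5 (horizontal), and in bone marrow, 89 weeks over P8 (vertical), for the 69 compared genes with 100 or more counts in both livers. The solid line marks equal ratios, and orange points are genes with 5 probe sets on the larger panel. Car2, C1qb and Slc40a1 lie near the line, Ctsg, Cd5l, Ppbp and Mpo above it, and Col1a1 and Lum below it.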

How the data were processed

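Single sections of P8 and 89-week mouse bone marrow, and of E14.5 and E13.5 fetal liver as a reference, were used. The deposited matrices hold raw counts of decoded transcripts per gene and segmented cell, which the authors obtained with Xenium Onboard Analysis 1.7.1.0 (P8 and E14.5) and 3.1.0.4 (89 weeks and E13.5). The genome build and the segmentation settings beyond the file headers are not given in the sources used here, and no doublets were removed.

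Counts of the 233 shared genes were summed over cells with 5 or more of them and divided by their total, without rounding. No test was run. Intervals are exact Clopper-Pearson intervals of ratios and shares at 95% confidence, computed in Python 3.11.15 with SciPy 1.17.1, NumPy 2.4.6 and pandas 2.3.3. The script was tested on simulated data. The thinned share is the share expected if 10 shared counts were drawn per cell without replacement. It was computed exactly, with no random draw.

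The named genes were the 10 with the largest ratio in each direction among those with 500 or more counts in a section, the 3 members of each of 19 lists with the highest summed CPM, and C1qa, C1qb, C1qc, Adgre1, Vcam1, Cd163, Siglec1 and Epor. Other genes were chosen after their values were seen. The comparison and the lists were chosen with earlier results of these data known. Alternatives were other cell filters, totals, scales and count minimums, and the fetal livers. Some genes that the rule names are not reported here.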

Additional observations from a re-analysis of the deposited data

How the results depend on the processing

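Ratios with single sections have no replicate check, and no paired analysis was possible because each age had 1 section. The number of genes at least 2-fold higher at 89 weeks was 28 of 223. It was 7 as counts per kept cell, 66 with the ratios centred on their median, 12 of 69 after subtraction of the fetal liver ratio, 18 of 132 with a minimum of 1000 counts, 11 of the 167 genes with 8 and 2 probe sets, 0 of the 1 gene with as many probe sets on both panels, and 13 at 4-fold. The number at least 2-fold higher at P8 was 113. It was 186 as counts per kept cell, 57 with centring, 25 of 69 after subtraction of the liver ratio, 70 of 132 with the minimum of 1000 counts, 71 of 162 without cells with 3 or more cartilage, bone or muscle counts, 1 of 1 with as many probe sets, and 65 at 4-fold. Of 15 gene lists, 1 had a median at least 2-fold higher at 89 weeks. This became 2 with all cells, by addition of the monocyte list. It was also 2 without cells with cartilage, bone or muscle counts, by addition of the chemokine list. The chemokine median then left out Ccl11, Cxcl2, Ccl12 and Cxcl1, which had too few counts. The number was 3 per probe set and 6 with centring. It was 0 of 13 lists over genes with 8 and 2 probe sets, among which the early granulocyte list had no gene. The lists with a median at least 2-fold higher at P8 went from 6 to 12 as counts per kept cell and to 3 with centring. After subtraction of the liver ratio they were 2 of the 5 lists that had a median. These were the endothelial and stromal lists, the only ones of the 6 among these 5. The erythroid, mature neutrophil and resident macrophage lists joined the 6 with a total without the skeletal lists. They also joined without cells with muscle, Acan or Sox9 counts. Among genes past 2-fold, the direction of Atp6v0d2 (log2 ratio 2.06), Serpina3n (0.60), Trdn (0.42), Pdgfrb (0.11) and Igfbp3 (0.10) turned without cells with cartilage, bone or muscle counts, that of Elane (-0.055), F13a1 (-0.44), Cxcl16 (-0.26), Ncr1 (-0.21), Ms4a6c (-0.45), Klra8 (-0.53) and Isg20 (-0.56), among others, as counts per kept cell, that of Ncf4 (0.048) with centring and that of Gata1 (1.52), Hk1 (0.87), Isca1 (0.57) and Slc40a1 (0.0097) after subtraction of the liver ratio. The removal of cells with cartilage, bone or muscle counts uses the counts of Atp6v0d2 and Trdn themselves, so their turns are not independent of it. The cause of the turns was not tested. Settings chosen after the data were seen were counts per probe set, the genes with 8 and 2 probe sets, a total without the skeletal lists and the removal of cells with muscle, Acan or Sox9 counts.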
